A study of Mus musculus with 3 samples.

Results

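CC chemokines are small secreted proteins that direct white blood cells along a concentration gradient, and 9 genes of this system were described here: the ligands Ccl2, Ccl3, Ccl4, Ccl6, Ccl7, Ccl8, Ccl9 and Ccl11 and the receptor Ccr2. They were chosen by name, as 8 ligands and 1 receptor, among 29625 genes listed in the 3 libraries, and each of the 9 was listed in all 3. The choice was made with earlier results of these data known. The libraries held nuclei of epididymal fat, the fat pad beside the testis, from male C57BL/6J mice, with 8 mice pooled into 1 library for each stage. Ctrl mice ate an ordinary diet (labelled full diet), while Mid_Ob and Ob mice ate a high fat diet with 60% fat. Body weight lay over 10% above the control mean in Mid_Ob and over 20% above it in Ob, and the mice were bought at 5 weeks of age. No age at sampling is used here, and no agent or altered gene other than the diet was part of any stage.

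With 1 library per stage there was no replicate, so no test was run between stages and no standard deviation could be given. Levels are in CPM, the counts of a gene in 1000000 unique molecules (UMIs) of a library or a cluster. A ratio between stages is given with its 95% interval, from an exact binomial comparison of the counts, and each level of a single cluster with its exact Poisson interval. These intervals cover counting error only, not the differences between mice or library preparations. A gene was called higher or lower when its CPM differed by over 1.5-fold and the pair held at least 50 counts of it.

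Depth was 53980929 UMIs for Ctrl, 57665213 for Mid_Ob and 111595518 for Ob. The deposited tables divide the nuclei of Ctrl among 14 clusters, those of Mid_Ob among 11 and those of Ob among 21, and each cluster was given a class here from lists of marker genes. The tissue label fitted in part. Adipocyte-like clusters took up 25.2% of all UMIs for Ctrl, 46.9% for Mid_Ob and 55.4% for Ob, and macrophage-like clusters 8.85% for Ctrl, 6.15% for Mid_Ob and 19.6% for Ob. In Ctrl, germ cell-like clusters held 26.3%, a testis somatic-like cluster 15.4% and an epididymal epithelium-like cluster 5.32%, and in Mid_Ob epididymal epithelium-like clusters held 30.3%, while no cluster of Ob was given these classes. The unnamed cluster 17 of Ob shares the leading genes Dnah11 and Rmst with the epididymal epithelium-like cluster of Ctrl. The unnamed cluster 11 of Mid_Ob shares C230072F16Rik and T2 with that cluster. Epididymal markers summed to 13795 CPM in the unnamed cluster 5 of Mid_Ob, 4570 CPM in cluster 7 and 4303 CPM in cluster 11, against 3089 CPM in its adipocyte-like cluster. Library ratios are therefore also given without the germ cell, testis and epididymis clusters, with all unnamed clusters kept in. The clusters had been formed on expression that includes the 9 genes, so differences between clusters are descriptions.

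Ccl2 and Ccl7 bind the receptor CCR2, which brings inflammatory monocytes out of the bone marrow and into tissues, where they can become macrophages. Ccl11, or eotaxin, binds CCR3 and attracts eosinophils, and Ccl8 of the mouse acts through CCR8. Ccl6 and Ccl9 are rodent ligands of CCR1, which Ccl3 binds as well, and Ccl4 attracts lymphocytes and monocytes. In obese adipose tissue, Ccl2 and Ccr2 are best known for the recruitment of monocytes.

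The genes of the ligands lie in 2 groups on chromosome 11 (GENCODE M21 annotation of GRCm38). Ccl2 (ENSMUSG00000035385), at chr11:82035571-82037453, is followed on the same strand by Ccl7 at chr11:82045712-82047525, Ccl11 at chr11:82057823-82062955 and Ccl8 at chr11:82115185-82116799. The second group holds Ccl9 at chr11:83572919-83578636 and Ccl6 at chr11:83587882-83593087, then Ccl3 at chr11:83647844-83649355, these on the minus strand, and Ccl4 at chr11:83662584-83664683 on the plus strand. Ccr2 lies apart from them at chr9:124101950-124113557. Ccl2 overlaps Gm17268 and Ccl6 overlaps E230016K23Rik, and reads in the overlap may belong to either gene, since the use of strand in counting is not given in the sources used here.

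Promoter sequences were matched for 5 of the 9 genes (RefSeq, GRCm38.p6), and the 250 bases before the start are shown for Ccl6 and Ccl9, the neighbouring genes whose levels were most alike across the clusters, and for Ccl8, which had another pattern. They are Ccl6 at chr11:83593088-83593337 and Ccl9 at chr11:83578637-83578886, both on the minus strand, and Ccl8 at chr11:82114935-82115184 on the plus strand. They run 5′ to 3′, and capitals mark matches to any of 4 motifs.
Ccl6: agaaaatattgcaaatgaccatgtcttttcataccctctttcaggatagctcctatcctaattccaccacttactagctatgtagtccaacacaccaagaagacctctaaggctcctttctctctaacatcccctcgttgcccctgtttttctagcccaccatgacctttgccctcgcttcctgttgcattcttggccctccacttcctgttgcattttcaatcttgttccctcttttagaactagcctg
Ccl9: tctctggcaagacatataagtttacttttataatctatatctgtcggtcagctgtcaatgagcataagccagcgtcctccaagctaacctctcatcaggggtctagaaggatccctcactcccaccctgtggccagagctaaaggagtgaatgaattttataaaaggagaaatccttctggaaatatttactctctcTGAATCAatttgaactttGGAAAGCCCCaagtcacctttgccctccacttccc
Ccl8: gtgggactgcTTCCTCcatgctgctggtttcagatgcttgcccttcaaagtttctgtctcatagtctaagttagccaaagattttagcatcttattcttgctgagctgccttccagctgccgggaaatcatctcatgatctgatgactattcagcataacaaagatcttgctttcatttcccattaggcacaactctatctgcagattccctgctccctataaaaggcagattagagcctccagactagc
The motifs were GGG and TTTCC with any 2 bases between them for NF-kB, TTC and GAA with any 4 bases between them for STAT factors, TGANTCA for AP-1 and GAGGAA for PU.1, searched on both strands. Of 32851 promoters of this length, 1.41% held the NF-kB motif, 5.85% the STAT motif, 6.75% the AP-1 motif and 23.3% the PU.1 motif. In Ccl9 an AP-1 match (TGAATCA) lay 53 to 47 bases before the start and an NF-kB match (GGAAAGCCCC, on the other strand) 35 to 26 bases before it, with no overlap between them. In Ccl8 a PU.1 match lay 240 to 235 bases before the start, on the other strand, and the window of Ccl6 held no match. A match is a description of these letters and not a binding site.

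The comparison of stages asked how the ligands and the receptor stood during and after the gain of weight. Between Ob and Mid_Ob all 9 genes were called higher over whole libraries, where 17.5% of all genes tested were called higher and 27.3% lower. Between Ob and Ctrl all 9 were again called higher, against 18.1% of all genes higher and 43.5% lower. Between Mid_Ob and Ctrl, Ccl2, Ccl7, Ccl8 and Ccl11 were called higher and Ccl3 lower, against 17.3% of all genes called higher and 35.5% lower. The median log2 ratio of the 9 genes was 2.40 for Ob over Mid_Ob, 2.56 for Ob over Ctrl and 0.46 for Mid_Ob over Ctrl, beside −0.09, −0.35 and −0.16 over all genes tested. Both comparisons with Ob share the Ob library, and both with Ctrl share the Ctrl library. Because the 9 genes were chosen with earlier results of these data known, their counts beside all genes are descriptions and not a test.

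Ccl2 stood at 2.98 CPM in Ctrl, 7.32 in Mid_Ob and 38.6 in Ob, on 161, 422 and 4313 counts. It was 2.45-fold higher in Mid_Ob than in Ctrl (2.04 to 2.96) and 5.28-fold higher in Ob than in Mid_Ob (4.78 to 5.85). Ccl7, the neighbour of Ccl2 and a ligand of the same receptor, stood at 0.815 CPM in Ctrl, 3.85 CPM in Mid_Ob and 22.1 CPM in Ob, on 44, 222 and 2467 counts. Its ratio was 4.72 for Mid_Ob over Ctrl (3.41 to 6.68) and 5.74 for Ob over Mid_Ob (5.0 to 6.62). Both ligands were thus called higher at each step.

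Ccl8 stood at 1.02 CPM in Ctrl, 2.46 in Mid_Ob and 11.4 in Ob, on 55, 142 and 1277 counts. It was 2.42-fold higher in Mid_Ob than in Ctrl (1.76 to 3.36) and 4.65-fold higher in Ob than in Mid_Ob (3.90 to 5.57). Ccl11, the eotaxin, had 1.26 CPM in Ctrl, 2.81 CPM in Mid_Ob and 7.44 CPM in Ob, on 68, 162 and 830 counts. Of the 9 genes it had the smallest ratio between Ob and Mid_Ob, 2.65 (2.23 to 3.15), after 2.23 between Mid_Ob and Ctrl (1.67 to 3.01). For these 4 ligands the order of the stages was the same, Ctrl lowest and Ob highest.

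Ccl6 and Ccl9, the rodent ligands of CCR1, were not called different between Mid_Ob and Ctrl. Ccl6 stood at 26.4 CPM in Ctrl, 27.3 in Mid_Ob and 192 in Ob, on 1424, 1576 and 21376 counts, so that Mid_Ob over Ctrl was 1.04 (0.964 to 1.11) and Ob over Mid_Ob 7.01 (6.66 to 7.38). Ccl9 stood at 20.3 CPM in Ctrl, 16.2 CPM in Mid_Ob and 108 CPM in Ob, on 1095, 933 and 12082 counts, with a ratio of 0.798 for Mid_Ob over Ctrl (0.730 to 0.871) and 6.69 for Ob over Mid_Ob (6.26 to 7.16). Over whole libraries both were called different at the later step only, although the interval of Ccl9 for Mid_Ob over Ctrl lay under 1.

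Ccl3 and Ccl4, ligands that macrophages and activated lymphocytes make, had the fewest counts of the 9 in Mid_Ob and in Ob. Ccl3 had 35 counts in Ctrl, 15 in Mid_Ob and 218 in Ob, or 0.648 CPM in Ctrl, 0.260 CPM in Mid_Ob and 1.95 CPM in Ob. It was called lower in Mid_Ob than in Ctrl, at 0.401-fold (0.204 to 0.754), and 7.51-fold higher in Ob than in Mid_Ob (4.45 to 13.6). Ccl4 had 93 counts in Ctrl, 74 in Mid_Ob and 531 in Ob, or 1.72 CPM in Ctrl, 1.28 CPM in Mid_Ob and 4.76 CPM in Ob, and its ratio was 0.745 for Mid_Ob over Ctrl (0.541 to 1.02) and 3.71 for Ob over Mid_Ob (2.90 to 4.80).

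Ccr2, the receptor of Ccl2 and Ccl7, stood at 21.4 CPM in Ctrl, 29.5 in Mid_Ob and 114 in Ob, on 1155, 1703 and 12727 counts. It was 1.38-fold in Mid_Ob against Ctrl (1.28 to 1.49), under the threshold, and 3.86-fold higher in Ob than in Mid_Ob (3.67 to 4.06). Over the whole span from Ctrl, the ratios of Ob over Ctrl ran from 2.76 for Ccl4 (2.21 to 3.48) and 3.01 for Ccl3 (2.10 to 4.44) to 13 for Ccl2 (11.1 to 15.3) and 27.1 for Ccl7 (20.1 to 37.4). Ccr2 lay between them at 5.33 (5.02 to 5.67), beside Ccl9 at 5.34 (5.02 to 5.68), Ccl11 at 5.90 (4.61 to 7.68), Ccl6 at 7.26 (6.88 to 7.67) and Ccl8 at 11.2 (8.57 to 15).

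**Figure D1:**
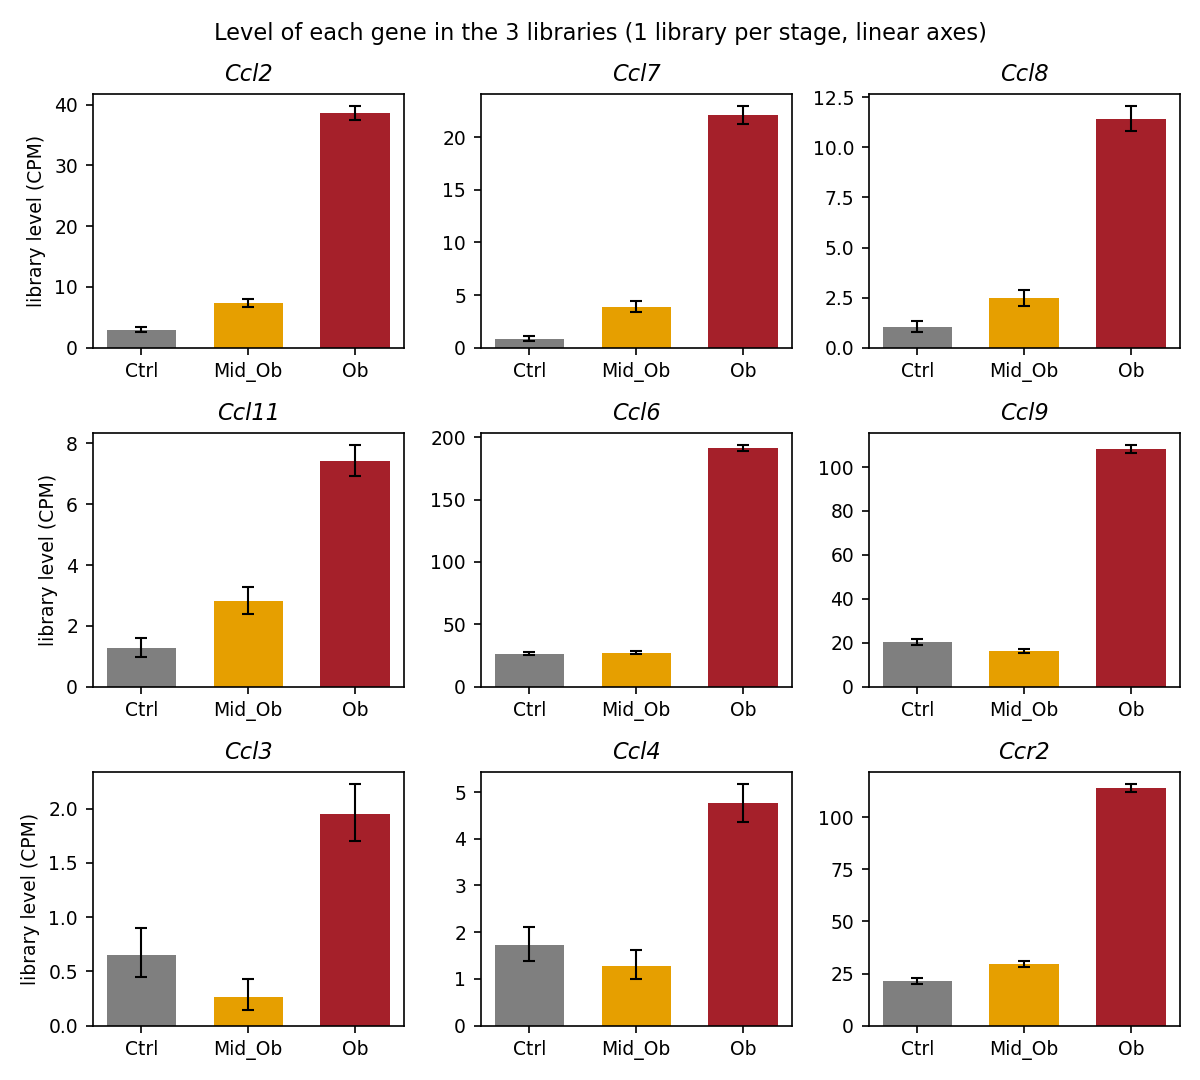
Library level of each of the 9 genes in CPM (vertical, linear axes from 0, a scale for each gene) in Ctrl, Mid_Ob and Ob (1 library each), with bars for the level and lines for the exact Poisson 95% interval of the count. Ob is the highest bar in every panel, Mid_Ob lies between for Ccl2 (7.32 CPM), Ccl7, Ccl8, Ccl11 and Ccr2, and Ccl6 is nearly level between Ctrl (26.4 CPM) and Mid_Ob (27.3 CPM).

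The markers of macrophages were also highest in Ob, but their sum was lower in Mid_Ob than in Ctrl. The summed level of 14 macrophage markers was 1230.2 CPM in Ctrl, 966 in Mid_Ob and 2211 in Ob, 13 of the 14 were called higher in Ob than in Mid_Ob, 12 in Ob than in Ctrl, and none was at 0. Between Mid_Ob and Ctrl 0 of the 14 were called higher and 4 lower, while Ccl2, Ccl7, Ccl8 and Ccl11 were higher. The share of the library in macrophage-like clusters was 19.6% in Ob and 6.15% in Mid_Ob. Whether a library held more cells of a type or more RNA per cell cannot be told apart in such sums.

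Without the germ cell, testis and epididymis clusters all 9 genes remained over 1.5-fold higher in Ob than in Mid_Ob, from Ccl11 at 2.22 (1.85 to 2.68) to Ccl6 at 5.68 (5.37 to 6.0), and higher than in Ctrl, from Ccl3 at 2.07 (1.38 to 3.21) to Ccl7 at 21.1 (14.7 to 31.3). Between Mid_Ob and Ctrl, Ccl9 then fell to 19.9 CPM in Mid_Ob, against 30.6 CPM in Ctrl, a ratio of 0.651 (0.591 to 0.717) and a call of lower. Ccl6 stood at 33.7 CPM in Mid_Ob and 41.8 CPM in Ctrl, a ratio of 0.807 (0.747 to 0.873), and Ccr2 at a ratio of 1.16 (1.06 to 1.26).

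By their highest clusters in Ob the 9 genes fell into 3 patterns, which overlap. Ccl6 and Ccl9 were highest in macrophage-like clusters and Ccr2 in a dendritic cell-like and a macrophage-like one, Ccl3 and Ccl4 in lymphocyte-like and macrophage-like clusters, and Ccl2, Ccl7 and Ccl11 in clusters of mixed or unnamed type. Ccl8 had features of both the first and the last pattern. So did Ccl9, with 284 CPM in cluster 18 and 254 CPM in cluster 13. For Ccl3 no neighbours in the order of clusters lay apart.

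**Figure D2:**
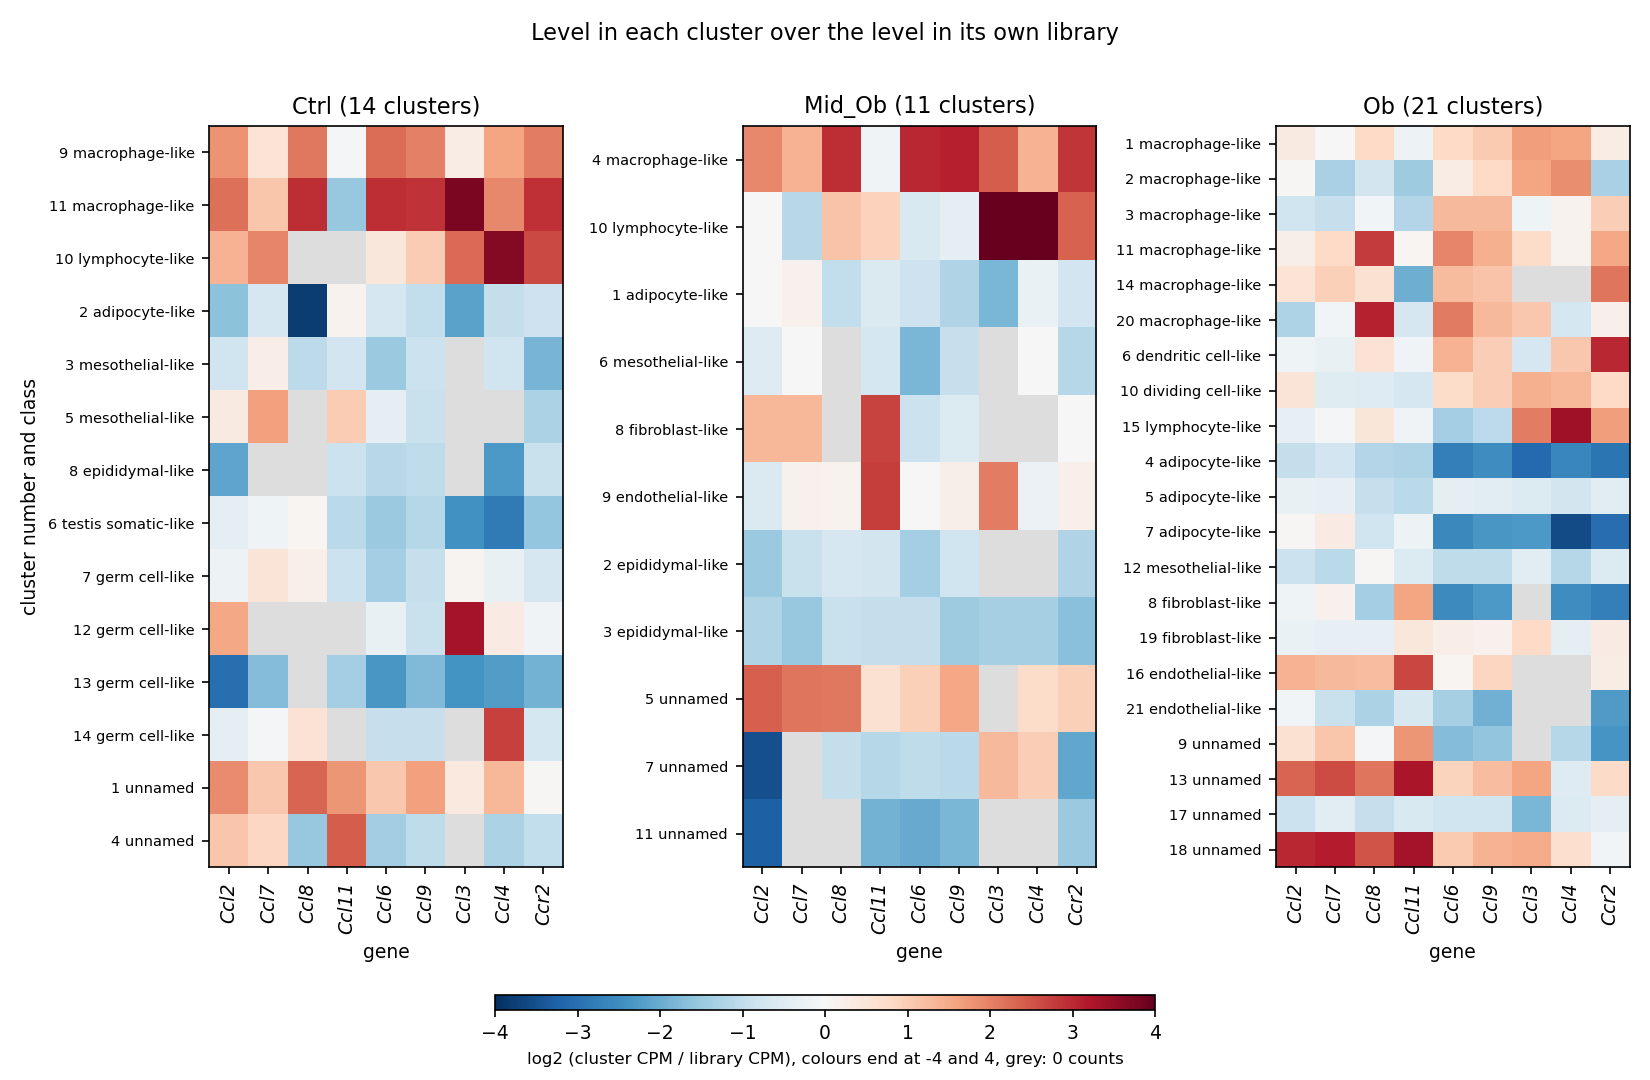
Log2 of the level of each gene in a cluster over its level in the same library (colour, ending at −4 and 4, grey for 0 counts), with the clusters of Ctrl (14), Mid_Ob (11) and Ob (21) down the page and the 9 genes across. Ccl6, Ccl9 and Ccr2 are red in the macrophage-like rows, except Ccr2 in cluster 2 of Ob (46.4 CPM), while Ccl2, Ccl7 and Ccl11 are dark red in the unnamed clusters 13 and 18 of Ob, where Ccl2 stood at 194 and 309.5 CPM, and the lymphocyte-like cluster 10 of Mid_Ob lies past the end of the colours for Ccl3 and Ccl4.

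Ccl2 in Ob was highest in the unnamed cluster 18 at 309.5 CPM (285 to 336), then in the unnamed cluster 13 at 194 CPM (170.2 to 221). Next came cluster 16 at 102 CPM, classed as endothelial-like but with markers of several types, and the unnamed cluster 9 at 59.2 CPM. The first 3 steps of this order lay outside counting error, with cluster 18 at 1.59 times cluster 13 (1.36 to 1.86), cluster 13 at 1.91 times cluster 16 (1.33 to 2.83) and cluster 16 at 1.72 times cluster 9 (1.13 to 2.54). Below them 17 clusters lay between 16.4 and 56.1 CPM. The lowest of the 21 clusters of Ob, the macrophage-like cluster 20 at 16.4 CPM (10.9 to 23.7), stood above the highest of the 14 clusters of Ctrl, the macrophage-like cluster 11 at 13.6 CPM (9.26 to 19.4), with intervals that overlap.

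In Mid_Ob, Ccl2 was highest in the unnamed cluster 5 at 38.4 CPM (18 counts), the macrophage-like cluster 4 at 27.6 CPM and the fibroblast or progenitor-like cluster 8 at 18.2 CPM, and these neighbours did not differ beyond counting error. Cluster 8 stood 2.46-fold (1.59 to 3.66) above the adipocyte-like cluster 1, at 7.40 CPM. In Ctrl no neighbours in the order of 14 clusters lay apart, with 13.6 CPM in the macrophage-like cluster 11 and 0.369 CPM in the germ cell-like cluster 13 at the ends.

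Ccl7 had the same 4 leading clusters in Ob as Ccl2, and the order below them differed. It stood at 195.6 CPM in cluster 18 (176 to 217), 136 CPM in cluster 13 (116 to 158), 53.8 CPM in cluster 16 and 47.9 CPM in cluster 9, and its lowest level was 8.97 CPM in the macrophage-like cluster 2, which is led by Mmp12 and Gpnmb. That lowest level also stood above the highest of Ctrl, 3.14 CPM on 2 counts in the lymphocyte-like cluster 10, with intervals that overlap. Over the 46 clusters the Pearson r of Ccl2 and Ccl7, on log2(CPM + 1), was 0.94, the highest of 11621 genes for either. Next to Ccl2 came Vim (0.93), an intermediate filament of mesenchymal cells, and Fabp5 (0.92), a fatty acid carrier, and next to Ccl7 Ifi27l2a (0.91) and Fabp5 (0.91). The 46 points share 3 libraries and differ in depth.

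The clusters that led for Ccl2 and Ccl7 stood apart in other ways. Mitochondrial transcripts made up 8.39% of the UMIs in cluster 18, 6.18% in cluster 13 and 1.35% in cluster 16 of Ob, against 0.472% over the library. Haemoglobin genes were among the leading genes of clusters 13 and 16, and cluster 16 had markers of several types over 2-fold, 9 of 10 endothelial, 11 of 14 fibroblast and 14 of 16 adipocyte (against the median of the other clusters). In cluster 16 the summed markers were 1980 CPM for endothelial, 11424 CPM for fibroblast and 13676 CPM for adipocyte. Its levels therefore cannot be assigned to endothelial cells, despite its class. Over the 21 clusters of Ob the Spearman correlation of the level with the mitochondrial share was 0.47 for Ccl2, 0.52 for Ccl7 and 0.59 for Ccl11. In Mid_Ob, cluster 5, with 2.98% mitochondrial transcripts and with haemoglobin genes and the sperm genes Prm1 and Prm2 among its leading genes, was highest for Ccl2 and Ccl7 as well. The part of these shares in the levels was not tested. Without these clusters (5 of Mid_Ob, 13 and 18 of Ob, 1 of Ctrl), a choice made after the values were seen, Ob over Mid_Ob was 4.58 for Ccl2 (4.13 to 5.09), 4.79 for Ccl7 (4.16 to 5.54), 4.22 for Ccl8 (3.53 to 5.08) and 2.0 for Ccl11 (1.68 to 2.40).

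Ccl11 had the same leading clusters in Ob, 74.7 CPM in cluster 18 (62.7 to 88.3), 70.9 CPM in cluster 13 (56.6 to 87.7), 47.8 CPM in cluster 16 (16 counts) and 25.3 CPM in cluster 9. It differed from Ccl2 in what came next, the fibroblast or progenitor-like clusters 8 at 22.2 CPM and 19 at 10.1 CPM, and the highest macrophage-like cluster of Ob had 7.83 CPM. In Mid_Ob the endothelial-like cluster 9 had 19 CPM and the fibroblast or progenitor-like cluster 8 had 18.2 CPM, and the following cluster, with 3 counts, 5.37 CPM. The leading genes of cluster 9 of Mid_Ob include Rgs5, from the marker list of pericytes or smooth muscle, and 1.13% of its UMIs were mitochondrial. Its Ccl11 level therefore cannot be assigned to endothelial cells alone. In Ctrl, Ccl11 was highest in the unnamed cluster 4 at 6.82 CPM (19 counts). That cluster was left unnamed because it had the markers of several types, 14 of 14 fibroblast, 10 of 10 endothelial and 5 of 5 lymphatic endothelial, and it shares the leading genes Sema3e, Fndc1, C1qtnf7, Creb5 and Opcml with the fibroblast or progenitor-like cluster 8 of Mid_Ob. The genes most like it over the 46 clusters were Bgn (0.87) and Postn (0.84), proteins of the extracellular matrix, and S100a11 (0.84).

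**Figure D3:**
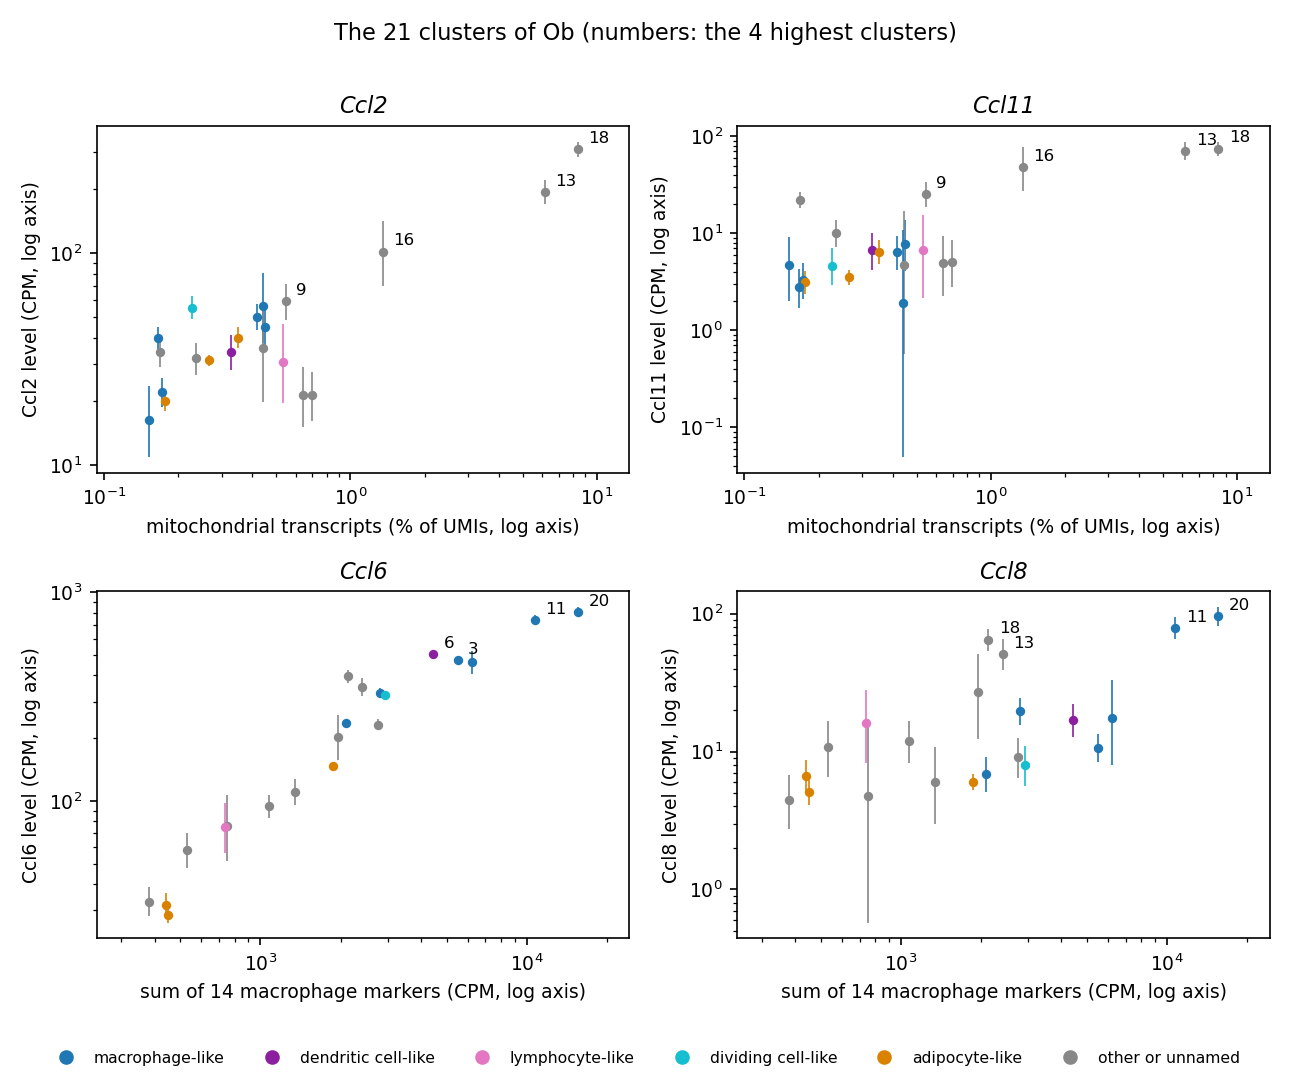
The 21 clusters of Ob, with the level of Ccl2 and Ccl11 (CPM, log axes) against the mitochondrial share of UMIs in the upper panels and of Ccl6 and Ccl8 against the summed level of 14 macrophage markers in the lower panels, points coloured by class, lines for exact Poisson 95% intervals and numbers for the 4 highest clusters. Clusters 13 and 18 stand at the upper right for Ccl2 and Ccl11, Ccl6 follows the markers along its whole range (Spearman correlation 0.96), and Ccl8 is high in clusters 11 and 20 and again in 13 and 18.

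Ccl8 was highest in Ob in the macrophage-like clusters 20 at 95.9 CPM (81.8 to 112) and 11 at 79.0 CPM (65.6 to 94.4), then in clusters 18 at 64.8 CPM and 13 at 50.9 CPM. No neighbours among them lay outside counting error. Clusters 20 and 11 are led by Lyve1, Cd163 and F13a1, genes of resident macrophages along vessels. The other macrophage-like clusters of Ob were lower, from 6.87 CPM in cluster 2 to 19.8 CPM in cluster 1. In Mid_Ob Ccl8 had its highest level, 19.2 CPM, in the single macrophage-like cluster, and in Ctrl 7.92 CPM in the macrophage-like cluster 11. The genes most like it were Fcer1g (0.92), a signalling chain of myeloid cells, Lyz2 (0.89), the lysozyme of macrophages, and Ccl6 (0.88).

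Ccl6 in Ob was highest in the same clusters 20 at 807 CPM (765 to 851) and 11 at 738 CPM (696 to 783), a ratio of 1.09 (1.01 to 1.18). It came next in the dendritic cell-like cluster 6 at 506 CPM and the macrophage-like clusters 3 at 475 CPM and 14 at 462 CPM. The lowest levels were in the adipocyte-like clusters 4 at 28.6 CPM and 7 at 31.8 CPM and the fibroblast or progenitor-like cluster 8 at 33.0 CPM, and what part of those comes from RNA free in the droplets was not tested. The lowest cluster had 5.29 CPM in Ctrl and 6.79 CPM in Mid_Ob. In those libraries the highest levels were 206 CPM in the macrophage-like cluster 11 of Ctrl and 221 CPM in the macrophage-like cluster 4 of Mid_Ob.

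Ccl9 had a flatter order in Ob than Ccl6 had, with 291 CPM in cluster 11 (264 to 319), 284 CPM in cluster 18, 267 CPM in cluster 20, 266 CPM in cluster 3 and 254 CPM in cluster 13, none of them outside counting error from its neighbour. It was lowest in the adipocyte-like cluster 4 at 19.5 CPM. Over the 46 clusters Ccl6 and Ccl9 had an r of 0.98, the highest of 11621 genes for each. C1qb, a complement chain of macrophages, followed for Ccl6 (0.97). Over the 21 clusters of Ob the Spearman correlation with the summed macrophage markers was 0.96 for Ccl6, 0.90 for Ccl9, 0.75 for Ccr2 and 0.66 for Ccl8, but 0.11 for Ccl2, 0.06 for Ccl7 and −0.19 for Ccl11.

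Ccr2 in Ob was highest in the dendritic cell-like cluster 6 at 924 CPM (892 to 958), 1.85 times (1.63 to 2.11) the macrophage-like cluster 14 at 499 CPM. Ccr2, Fgr and Adgre4 were among the leading genes of that cluster. The lymphocyte-like cluster 15 at 365 CPM and the macrophage-like cluster 11 at 334 CPM came next and did not differ beyond counting error (1.09, 0.938 to 1.27). Among the macrophage-like clusters of Ob the lowest was cluster 2 at 46.4 CPM, under the level of the whole library. Ccr2 was lowest in the adipocyte-like clusters 7 at 13.7 CPM and 4 at 14.9 CPM.

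Cluster 6 held 2.95% of the UMIs of Ob and 23.9% of its Ccr2 counts. It is led by genes that include Clec9a and Flt3, markers of dendritic cells, and had 8 of 8 dendritic cell, 10 of 12 monocyte and 7 of 14 macrophage markers over 2-fold, and 9 of 11 T cell or NK cell markers as well. The summed markers of cluster 6 were 862 CPM for dendritic cell, 1242 CPM for monocyte and 4455 CPM for macrophage. In the macrophage-like clusters of Ob the macrophage sum ran from 2087 CPM in cluster 2 to 15575 CPM in cluster 20. The Ccr2 level of cluster 6 therefore cannot be assigned to dendritic cells alone. Mid_Ob and Ctrl had no cluster of the dendritic cell-like class. In Mid_Ob, Ccr2 stood at 216 CPM in the macrophage-like cluster 4 and 150.4 CPM in the lymphocyte-like cluster 10, and in Ctrl at 163 CPM in the macrophage-like cluster 11, 133 CPM in the lymphocyte-like cluster 10 and 87.5 CPM in the macrophage-like cluster 9. The genes most like Ccr2 were Il10ra (0.94), a receptor chain for interleukin-10, Actr3 (0.94), of the actin machinery, and Ptprc (0.93), the common leukocyte antigen CD45.

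**Figure D4:**
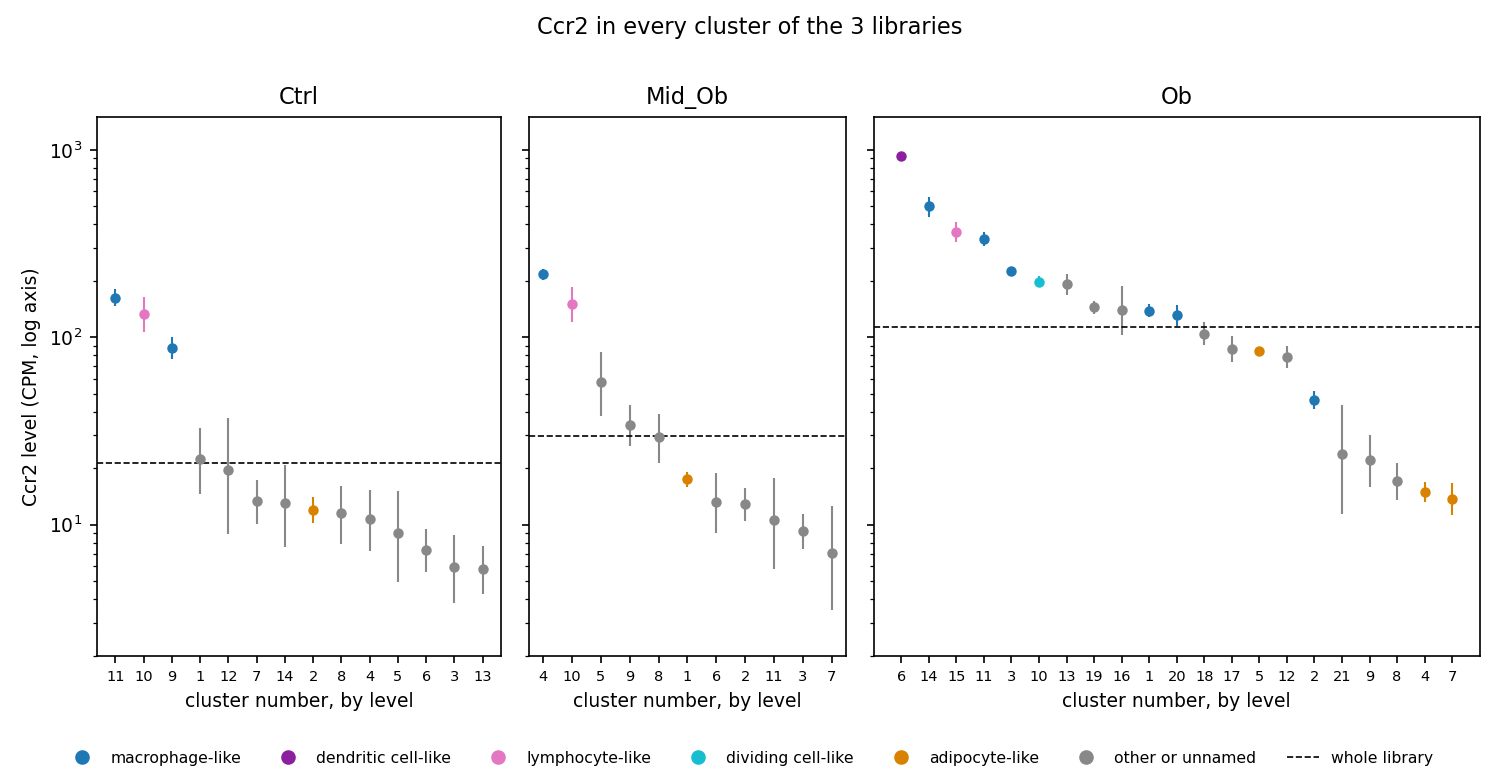
Ccr2 level in every cluster of Ctrl, Mid_Ob and Ob (CPM, log axis), ordered by level, points coloured by class with exact Poisson 95% intervals, and a dashed line for the level of the whole library (21.4 CPM in Ctrl, 29.5 CPM in Mid_Ob and 114 CPM in Ob). The dendritic cell-like cluster 6 of Ob stands highest at 924 CPM, and the macrophage-like and lymphocyte-like clusters lead in Ctrl and Mid_Ob.

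Ccl4 was highest in the lymphocyte-like cluster of each library, at 22.0 CPM in Ctrl (14 counts), 32.2 CPM in Mid_Ob (18 counts) and 49.6 CPM in Ob (37 counts). In Ob that was 2.90 times (1.95 to 4.22) the macrophage-like cluster 2 at 17.1 CPM, and in Mid_Ob 9.53 times (4.34 to 21.7) the macrophage-like cluster at 3.38 CPM. In Ctrl the next cluster was a germ cell-like one at 11.5 CPM, and the step lay within counting error. Ccl3 had 8.04 CPM in the lymphocyte-like cluster of Ob (6 counts), 6.19 CPM in the macrophage-like cluster 1 and 5.89 CPM in cluster 2, no pair of neighbours apart, and 0 counts in 5 of the 21 clusters. In Mid_Ob the lymphocyte-like cluster had 7.16 CPM of Ccl3 on 4 counts, and in Ctrl the macrophage-like cluster 11 held 20 of the 35 Ccl3 counts. The genes most like Ccl4 were Bin2 (0.81), Cd37 (0.80) and Rinl (0.80), and those most like Ccl3 were Ube2l3, Cotl1 and Sash3 (0.78 each).

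The share of each gene's counts by class differed among the ligands. Macrophage-like clusters held 54.8%, 49.8% and 42.4% of the Ccl6 counts in Ctrl, Mid_Ob and Ob, and 35.4%, 23.2% and 17.8% of the Ccl2 counts. Adipocyte-like clusters held 8.07% of the Ccl2 counts in Ctrl (exact interval 4.37 to 13.4), 47.4% in Mid_Ob (42.5 to 52.3) and 41.7% in Ob (40.2 to 43.2), with 25.2%, 46.9% and 55.4% of all UMIs. For Ccr2 the share in macrophage-like clusters was 51.0% in Ctrl, 45.1% in Mid_Ob and 27.1% in Ob. For Ccl11 in Ob it was 10.8%, with 17.7% in fibroblast or progenitor-like clusters and 33.5% in unnamed ones. The unnamed share includes cluster 9, with 47 counts of Ccl11 (5.66%), which had 14 of 14 fibroblast markers over 2-fold along with 8 of 10 endothelial ones.

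Within macrophage-like clusters the ratio of Ob over Mid_Ob was lower than over the libraries for each of the 9 genes, with intervals that overlap for Ccl3, Ccl4 and Ccl11. Between Ob and Mid_Ob 6 of the 9 were called higher and 0 lower, against 13.1% of all genes called higher and 18.4% lower, with a median log2 ratio of 0.70 beside −0.06 over all genes. Between Ob and Ctrl 7 of 9 were called higher and 0 lower, against 13.7% of all genes higher and 24.1% lower. Between Mid_Ob and Ctrl 5 genes had at least 50 counts and Ccl2, Ccl8 and Ccr2 were called higher, against 8.71% of all genes higher and 14.8% lower.

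Ccl2 in these clusters had 11.9 CPM in Ctrl, 27.6 CPM in Mid_Ob and 35.0 CPM in Ob, so Mid_Ob over Ctrl was 2.31 (1.65 to 3.27) and Ob over Mid_Ob 1.27 (1.03 to 1.58), under the threshold. Ccl7 had 1.47 CPM in Ctrl, 10.1 CPM in Mid_Ob and 16 CPM in Ob, on 7, 36 and 349 counts, and Ob was 1.57-fold above Mid_Ob (1.12 to 2.28). Ccl8 had 6.07 CPM in Ctrl, 19.2 CPM in Mid_Ob and 22.7 CPM in Ob, with 3.16 for Mid_Ob over Ctrl (2.02 to 5.06) and 1.19 for Ob over Mid_Ob (0.920 to 1.55). The larger step of Ccl2 and Ccl8 in macrophage-like clusters was thus the one between Mid_Ob and Ctrl, unlike that over whole libraries. Without cluster 20 of Ob, where Ccl8 was at 95.9 CPM, its ratio was 0.863 for Ob over Mid_Ob (0.663 to 1.14). Cluster 2 of Ob acted the other way, with 6.87 CPM on 7134271 of the 21854989 UMIs in these clusters. The step of Ccl8 between Mid_Ob and Ob thus depends on which clusters of Ob are counted, and the ratio without cluster 2 is not given here.

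Ccl6 had 164 CPM in macrophage-like clusters of Ctrl, 221 CPM in Mid_Ob and 415 CPM in Ob, with 1.35 for Mid_Ob over Ctrl (1.22 to 1.5) and 1.87 for Ob over Mid_Ob (1.74 to 2.02). Ccl9 had 115 CPM in Ctrl, 139 CPM in Mid_Ob and 234 CPM in Ob, with 1.21 for Mid_Ob over Ctrl (1.07 to 1.37) and 1.69 for Ob over Mid_Ob (1.54 to 1.85). Of the 2 macrophage-like clusters of Ctrl, cluster 11 was the higher for both, and without it Mid_Ob over Ctrl was 1.77 for Ccl6 (1.55 to 2.02) and 1.69 for Ccl9 (1.44 to 2.0), both then called higher. In these clusters the 14 macrophage markers did not move as over the libraries, with 2 higher and 3 lower in Ob against Mid_Ob and a ratio of sums of 0.739.

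Ccr2 in macrophage-like clusters had 123 CPM in Ctrl, 216 CPM in Mid_Ob and 158 CPM in Ob. It was 1.76-fold higher in Mid_Ob than in Ctrl (1.57 to 1.96), a call that was lost without cluster 9 of Ctrl (log2 ratio 0.41, against 0.81 with it), and Ob stood at 0.729 of Mid_Ob (0.674 to 0.789), within the threshold. Cluster 2 of Ob lowered the Ob level, with 46.4 CPM on 7134271 of the 21854989 UMIs in these clusters. The ratios of Ob over Mid_Ob and over Ctrl both depend on that cluster, and their values without it are not given here. Monocyte markers were called lower in Ob than in Mid_Ob for 7 of the 8 with enough counts (summed 265 CPM in Ob and 754 CPM in Mid_Ob) and dendritic cell markers for 6 of 6 (182 CPM in Ob and 453 CPM in Mid_Ob). Their part in the level of Ccr2 was not tested. With the dendritic cell-like cluster 6 of Ob counted in, a choice made after the values were seen, Ccr2 in Ob was 258 CPM, 1.19 times Mid_Ob (1.11 to 1.29) and 2.09 times Ctrl (1.92 to 2.28), where without it the ratio over Ctrl was 1.28 (1.17 to 1.40).

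Ccl4 in macrophage-like clusters had 5.86 CPM in Ctrl, 3.38 CPM in Mid_Ob and 10.5 CPM in Ob, on 28, 12 and 229 counts, with 3.10 for Ob over Mid_Ob (1.74 to 6.09). Ccl3 had 4.61 CPM in Ctrl, 1.41 CPM in Mid_Ob and 4.16 CPM in Ob, on 22, 5 and 91 counts, with 2.96 for Ob over Mid_Ob (1.22 to 9.32) and 0.904 for Ob over Ctrl (0.563 to 1.51). Without cluster 11 of Ctrl, which held 20 of the 22 counts, the last ratio was 5.21 (1.40 to 43.7). Ccl11 had 4, 9 and 90 counts and 0.837 CPM in Ctrl, 2.54 CPM in Mid_Ob and 4.12 CPM in Ob, and its interval of Ob over Mid_Ob, 0.818 to 3.67, held 1.

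In adipocyte-like clusters all 9 genes were called higher in Ob than in Mid_Ob, against 15.3% of all genes higher and 19% lower, and in Ob than in Ctrl, against 18.8% higher and 27.6% lower. Of 6 genes with enough counts, Ccl2 and Ccl7 were called higher in Mid_Ob than in Ctrl and none lower, against 15.3% of all genes higher and 20.2% lower. Ccl2 stood at 0.954 CPM in Ctrl (13 counts), 7.40 CPM in Mid_Ob (200 counts) and 29.1 CPM in Ob (1797 counts), so Mid_Ob was 7.75-fold above Ctrl (4.43 to 14.8) and Ob 3.93-fold above Mid_Ob (3.39 to 4.57). Ccl7 stood at 0.514 CPM in Ctrl, 4.29 CPM in Mid_Ob and 17.5 CPM in Ob, with 8.35 for Mid_Ob over Ctrl (3.93 to 21.2) and 4.08 for Ob over Mid_Ob (3.37 to 4.99). The interval of Mid_Ob over Ctrl lay above that of the library for Ccl2, and the intervals overlap for Ccl7.

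One of the 3 adipocyte-like clusters of Ob decided the values of several genes. Cluster 5 held 32.6% of the UMIs of Ob. Its macrophage markers summed to 1872 CPM, against 451 CPM in cluster 4 and 441 CPM in cluster 7. The same sum was 657 CPM in the adipocyte-like cluster of Mid_Ob and 1146 CPM in that of Ctrl. Ccl6 stood at 148 CPM in cluster 5 and at 28.6 and 31.8 CPM in clusters 4 and 7. Ccl2 had 31.2 CPM in cluster 5, 20.04 CPM in cluster 4 and 39.9 CPM in cluster 7.

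Without cluster 5, Ob over Mid_Ob in adipocyte-like clusters was 3.51 for Ccl2 (2.99 to 4.13), 4.03 for Ccl7 (3.28 to 4.99), 4.41 for Ccl8 (3.01 to 6.61) and 2.19 for Ccl11 (1.55 to 3.12), beside 3.93, 4.08, 4.63 and 2.01 with it. Ccl6 was 1.92 (1.70 to 2.17) without it and 6.43 (5.83 to 7.12) with it. Ccl9 was 2.85 (2.41 to 3.39) without it and 7.71 (6.67 to 8.97) with it. Ccr2 stood at 14.6 CPM in Ob and 17.4 CPM in Mid_Ob without cluster 5, a ratio of 0.837 (0.729 to 0.961), and at 3.20 (2.90 to 3.53) with it. Its call over Ctrl was lost too, at 1.22 (1.01 to 1.47) without the cluster and 4.66 with it. Ccl4 then had 17 counts in Ob and 29 in Mid_Ob, a ratio of 0.623 (0.321 to 1.17) against 1.84 with cluster 5, and 0.759 over Ctrl (0.342 to 1.74) against 2.24 with it. Ccl3 had 7 counts in Ob and 2 in Mid_Ob, a ratio of 3.72 (0.708 to 36.7) against 12.2 with it. Clusters 4 and 7 had lower summed macrophage markers than the adipocyte-like clusters of Mid_Ob and Ctrl. Ratios without cluster 5 therefore also compare clusters with unlike levels of these markers. The part of the macrophage markers in the levels of cluster 5 was not tested.

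**Figure D5:**
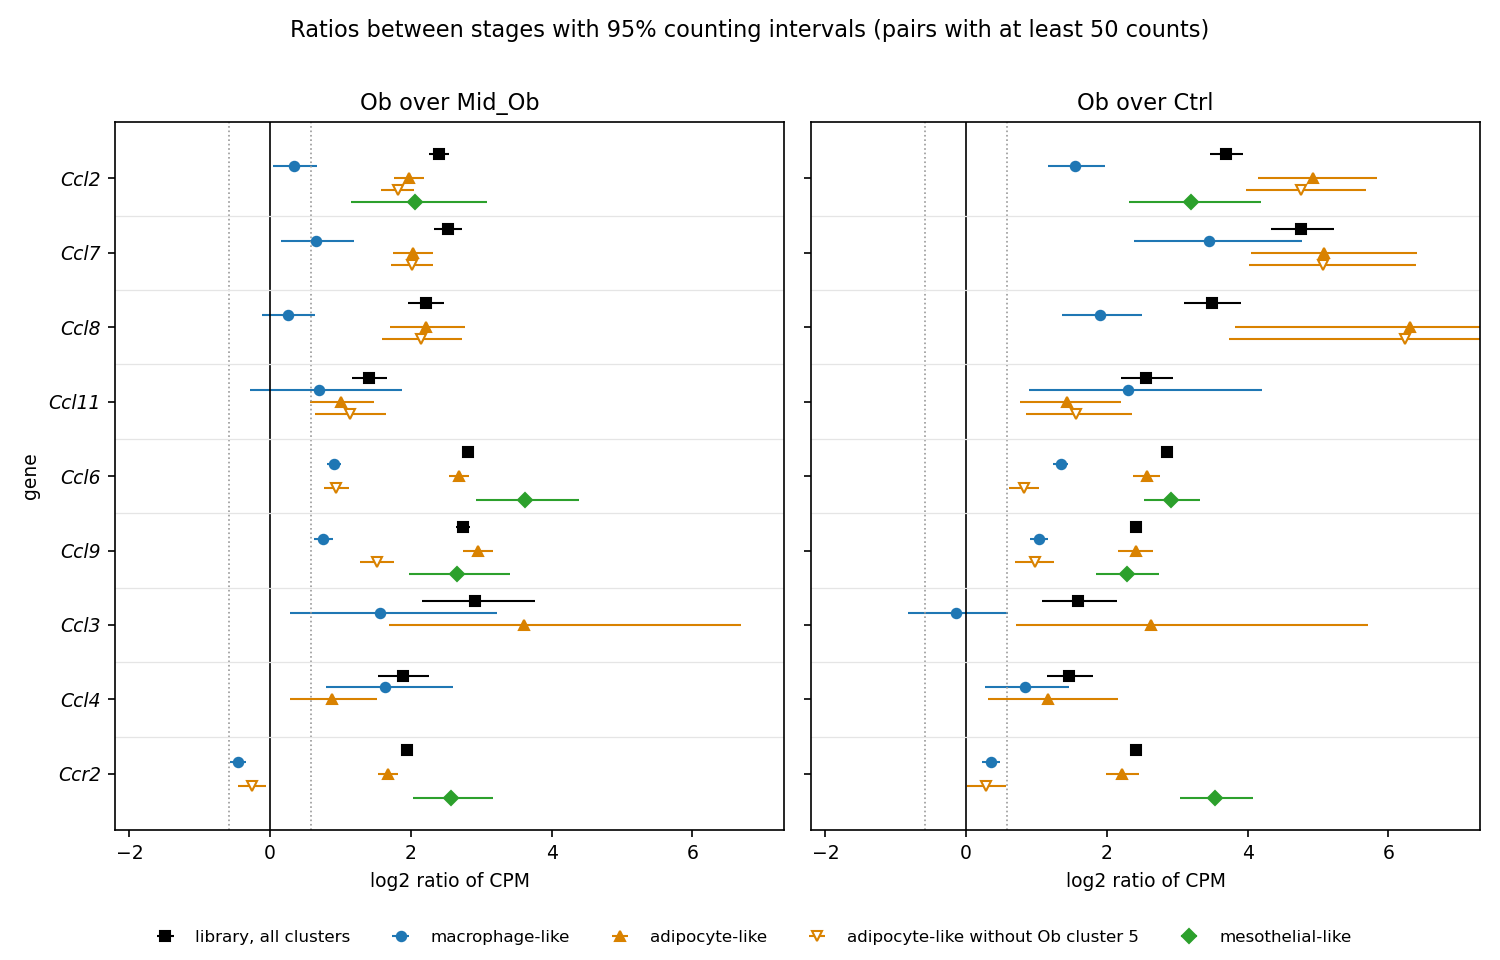
Log2 ratio of CPM for Ob over Mid_Ob (left) and Ob over Ctrl (right), for the library and 3 classes, with 95% counting intervals and dotted lines at 1.5-fold; intervals of Ccl8 in adipocyte-like clusters over Ctrl (1 count in Ctrl) run past the axis. Open triangles, without cluster 5 of Ob, lie beside the filled ones for Ccl2, Ccl7, Ccl8 and Ccl11 and far to the left of them for Ccl6, Ccl9 and Ccr2 (0.837 and 3.20 for Ccr2 in Ob over Mid_Ob). Ccl3 and Ccl4 have no open triangle, with under 50 counts without cluster 5.

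In fibroblast or progenitor-like clusters, compared without Ctrl, whose cluster with these markers was mixed, 6 of 7 genes with enough counts were called higher in Ob than in Mid_Ob, against 18.6% of all genes higher and 13.4% lower. Ccl11 was the exception, with 16.5 CPM in Ob and 18.2 CPM in Mid_Ob, a ratio of 0.909 (0.604 to 1.41). Ccl2 was 1.82-fold higher (1.23 to 2.78), at 33.1 CPM in Ob against 18.2 CPM in Mid_Ob, and Ccl7 2.22-fold (1.31 to 4.04). Ccl8 had 59 counts in Ob and 0 in Mid_Ob, a ratio of 3.40 with a floor of 3 counts in Mid_Ob and a lower 95% limit of 2.68 from the counts themselves. The macrophage markers again differed between clusters, at 2753 CPM in cluster 19 and 380 CPM in cluster 8 of Ob, with all 14 called higher in Ob. Without cluster 19, Ccr2 had 17.1 CPM in Ob and 29.2 CPM in Mid_Ob (0.586, 0.402 to 0.864), against 2.63 (1.94 to 3.64) with it, and Ccl6 was 2.21 (1.42 to 3.59), against 8.47 (5.62 to 13.4) with it. Ccl2 was 1.87 (1.25 to 2.91) without it.

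In mesothelial-like clusters, of the lining of the fat pad, the 4 genes with enough counts, Ccl2, Ccl6, Ccl9 and Ccr2, were called higher in Ob than in Mid_Ob, against 13.3% of all genes higher and 9.58% lower, and higher than in Ctrl, against 15.3% higher and 18.1% lower. Ccl2 was at 21.3 CPM in Ob and 5.13 CPM in Mid_Ob (4.15-fold, 2.21 to 8.49), Ccl6 at 94.4 CPM in Ob and 7.70 CPM in Mid_Ob (12.3-fold, 7.60 to 21) and Ccr2 at 78.8 CPM in Ob and 13.3 CPM in Mid_Ob (5.94-fold, 4.07 to 8.96). Between Mid_Ob and Ctrl, Ccr2 was called higher and Ccl6 lower among 3 genes tested, against 8.06% of all genes higher and 12.3% lower, on at most 88 counts. Ccr2 was at 1.96 (1.18 to 3.23), while the interval of Ccl6, 0.617 (0.346 to 1.05), held 1. Here 12 of 14 macrophage markers were called higher in Ob than in Mid_Ob, with summed levels of 1074 CPM in Ob and 400 CPM in Mid_Ob, and their part in the result was not tested.

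Other genes of the CC chemokine system did not all follow the 9. Of 26 in a fixed list, 19 had at least 50 counts between Ob and Mid_Ob, with a median log2 ratio of 0.22. Of the 19, 8 were called higher and 4 lower, against 17.5% of all genes higher and 27.3% lower. Between Ob and Ctrl 7 of 22 were called higher and 9 lower, against 18.1% higher and 43.5% lower. Between Mid_Ob and Ctrl 3 of 20 were called higher and 9 lower, against 17.3% higher and 35.5% lower. Ccr1, the receptor of Ccl6 and Ccl9, had 3.54 CPM in Ctrl, 2.86 CPM in Mid_Ob and 11.1 CPM in Ob over the libraries, with 3.88 for Ob over Mid_Ob (3.29 to 4.59), but 1.15 in macrophage-like clusters (0.905 to 1.48).

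The receptors of Ccl11 and Ccl8 had few counts. Ccr3, the receptor of Ccl11, had 18 counts in Ctrl, 7 in Mid_Ob and 53 in Ob. Ccr8, through which Ccl8 acts, had 1 count in Ctrl, 0 in Mid_Ob and 2 in Ob. Ccl12, the mouse ligand of CCR2 that lies between Ccl11 and Ccl8, had 0.760 CPM in Ctrl, 0.572 CPM in Mid_Ob and 2.33 CPM in Ob and was 4.07-fold higher in Ob than in Mid_Ob (2.83 to 6.04). Its highest level in Ob was in the macrophage-like cluster 11, 22.2 CPM (15.4 to 31.0). Ccl24, of the eotaxin family like Ccl11, was called lower in Ob in macrophage-like clusters, at 12.4 CPM in Ctrl, 7.05 CPM in Mid_Ob and 2.43 CPM in Ob, with 0.196 for Ob over Ctrl (0.133 to 0.289). Cluster 11 held 46 of its 59 counts in these clusters of Ctrl, and without it Ctrl had 5.19 CPM, with 0.467 for Ob over Ctrl (0.251 to 0.933) and 1.36 for Mid_Ob over Ctrl (0.668 to 2.89).

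Of the more abundant others by CPM, Ccl25, a ligand of CCR9, had 72.1 CPM in Ctrl, 76.7 CPM in Mid_Ob and 76.2 CPM in Ob, with a ratio of 0.994 for Ob over Mid_Ob (0.958 to 1.03). Ackr4, which scavenges chemokines, had 19.9 CPM in Ctrl, 36.1 CPM in Mid_Ob and 33.9 CPM in Ob and was highest in adipocyte-like clusters of each library. Cx3cr1, the fractalkine receptor, had 23.9 CPM in Ctrl, 15.7 CPM in Mid_Ob and 13 CPM in Ob, and Ob over Ctrl was 0.543 (0.504 to 0.586) and Mid_Ob over Ctrl 0.655 (0.601 to 0.713). Neither call held without the germ cell, testis and epididymis clusters, where Cx3cr1 stood at 1.04 for Ob over Ctrl (0.921 to 1.17) and 1.25 for Mid_Ob over Ctrl (1.10 to 1.43).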

How the data were processed

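Reads were aligned and counted by the authors in Cell Ranger, which calls STAR. Their versions, the build and the gene annotation: not given in the sources used here. The deposited tables, 1 for each library, give for each gene and cluster a mean count (signal), the UMIs of the cluster divided by its summed size factor. The value of 1 count was found for each cluster, which returned whole counts for 100% of values within 0.001 counts, and these were summed over clusters and divided by the total. Deposited log2 fold changes and adjusted p-values hold the authors' own cluster comparisons and were not used. The tables hold no barcodes, so numbers of nuclei and nuclei shared between libraries were not counted. By the methods nuclei with 5% or more mitochondrial UMIs and doublets were removed, but clusters 13 and 18 of Ob exceed that share, so the deposited clusters were not limited by it.

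Ratios and intervals were computed with Python 3.11.15, numpy 2.4.6, scipy 1.17.1 and pandas 2.3.3, plots with matplotlib 3.10.9, and the scripts were tested on simulated data. GENCODE M21 matched 29593 of 29625 gene IDs. All 9 genes were described, of the other CC genes the 4 with most CPM, the receptors of the 9, Ccl12 and Ccl24 (some named by this rule are not reported here), and for likeness the 3 genes of highest r among the 9 and all genes with at least 200 counts in each library. Clusters were named from marker lists (over 2-fold the median of the library's other clusters). Alternatives were a minimum of 10 or 500 counts, a 2-fold threshold, scaling by the median gene, equal weight for every cluster, totals without mitochondrial genes, and single clusters or groups of clusters left out. The genes and lists were chosen with earlier results of these data known.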

Additional observations from a re-analysis of the deposited data

How the results depend on the processing

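No paired analysis was possible because each stage had 1 library. With a minimum of 500 counts in a pair, fewer genes could be called: 1 of the 9 between Mid_Ob and Ctrl over libraries, 1, 2 and 4 in macrophage-like clusters (Mid_Ob over Ctrl, Ob over Mid_Ob, Ob over Ctrl), 0, 5 and 5 in adipocyte-like clusters, 0, 0 and 0 in mesothelial-like clusters and 3 in fibroblast or progenitor-like clusters. With a minimum of 10 counts 7 were called in macrophage-like clusters between Mid_Ob and Ctrl, with Ccl3 and Ccl4 lower. In mesothelial-like clusters 4, 7 and 8 were then called, with Ccl6 lower between Mid_Ob and Ctrl. At a 2-fold threshold 2 were called in macrophage-like clusters between Ob and Mid_Ob and 0 in mesothelial-like clusters between Mid_Ob and Ctrl. Without cluster 11 of Ctrl 5 were called in macrophage-like clusters between Mid_Ob and Ctrl, and without cluster 3 or cluster 5 of Ctrl 1 was called in mesothelial-like clusters. The shares of all genes called under these settings are not given here. These counts therefore describe only how the calls of the 9 genes depend on the setting.

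Of 92 log2 ratios, 11 changed sign under an alternative, 7 of them within 1.5-fold as reported. The other 4 were over 1.5-fold: without cluster 5 of Ob, Ob over Mid_Ob in adipocyte-like clusters was −0.68 for Ccl4 and −0.26 for Ccr2, and Ob over Ctrl −0.40 for Ccl4, and without cluster 19 of Ob, Ccr2 in fibroblast or progenitor-like clusters was −0.77. Scaling by the median gene moved library log2 ratios by 0.35 between Ob and Ctrl and by 0.16 between Mid_Ob and Ctrl, upwards, and the counts of calls stayed within 1.5 times. Genes under 50 counts in a pair (Ccl3, Ccl4, Ccl7 and Ccl11 in macrophage-like clusters of Mid_Ob and Ctrl) could not be called at this depth.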
